A study of Mus musculus with 22 samples.

Results

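First mandibular molars of Tgfbr2-G357W/+ mice (Het) were compared with those of Tgfbr2+/+ wild-type littermates (WT) at postnatal day 11 (P11) by bulk RNA sequencing. The libraries were chosen by their labels: 5 P11 Het and 5 P11 WT libraries, 10 of the 22 in the series, the other 12 being from postnatal day 5 (P5; 6 WT and 6 Het). The Het mice carry 1 substituted copy of the gene and model Loeys-Dietz syndrome type II, an inherited disorder of connective tissue. No other allele, strain or agent is named for either group, and nothing ties a library to an animal. With 5 Het and 8 WT mice in the series by its text, and 22 libraries, an animal may have given more than 1 library. The p-values reflect spread among libraries only and may therefore be too small.

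Transforming growth factor beta (TGF-beta) ligands bind a complex of type I and type II receptor kinases, which phosphorylate Smad2 and Smad3 and so alter transcription. In the tooth the pathway acts in ameloblasts, the epithelial cells that lay down enamel, and in the mesenchyme that makes dentin, pulp and the ligament that holds the root. Ameloblasts first secrete a protein matrix rich in amelogenin, ameloblastin and enamelin, and later turn to maturation, in which proteases remove this matrix and ion transporters harden the mineral.

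The substitution lies in the kinase domain of the receptor. It is shown here because all comparisons rest on it. The sequence is the reference one, GENCODE M21 on GRCm38, exon 4 of 7 of the 567-codon form of Tgfbr2, read on the minus strand, and the capitals mark codon 357, a glycine codon at chr9:116109687-116109689, which the mutant allele (G357W) replaces with a tryptophan codon.

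Tgfbr2 codon 357, chr9:116109663-116109713, minus strand: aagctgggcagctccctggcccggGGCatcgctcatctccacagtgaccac

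Tgfbr2 itself (ENSMUSG00000032440; GRCm38 chr9:116084293-116175360) was read at 109, 123, 119, 113 and 115 CPM (counts over TMM-adjusted library totals) in WT 1 to 5 and at 109.7, 115, 106, 116 and 99.8 CPM in Het 1 to 5. The genotypes overlapped. The means were 116 ± 5.31 CPM in the WT and 109 ± 6.56 CPM in the Het group (SD over 5 libraries each), and the log2 fold change (Het over WT) was -0.08 ± 0.06 (SE; edgeR's quasi-likelihood test, Benjamini-Hochberg adjusted p = 0.618). Since a single substitution can leave the transcript level as it is, the genotype labels cannot be checked in this way.

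The 10 libraries held 35879149 to 45343744 counts. Library names hold, before their hyphen, a numeral of unstated meaning (the prefix): WT 1 to 3 and Het 1 to 3 have prefix 1, and WT 4, WT 5, Het 4 and Het 5 have prefix 2. The prefix entered the test as a block. Markers of oral keratinocytes, which line the gum over an erupting tooth, stood apart in 3 libraries. Their mean log2 CPM over the list was 5.71 in WT 4, 4.41 in WT 5 and 4.75 in Het 2, against 0.49 to 2.08 in the other 7, and the first principal component (51.5% of variance, from the 1000 genes that varied most) set the same 3 libraries apart. The keratin gene Krt4 was at 0.558, 1.38, 0.585, 314 and 83.7 CPM in WT 1 to 5 and at 6.59, 280.4, 17.8, 1.45 and 2.94 CPM in Het 1 to 5. Of the 23 keratinocyte genes tested 13 were higher and 10 lower in the fit, none called, and the median difference was 3.92 in prefix 1 and -4.77 in prefix 2. Y-linked genes were high in 2 of 5 libraries of each genotype. These were WT 2, WT 3, Het 1 and Het 2, all of prefix 1, and no prefix 2 library was among them. Comparisons between the prefixes therefore also set libraries with unlike Y-linked levels side by side. Amelx, Ambn and Dspp, which define enamel and dentin tissue, were abundant in all 10 libraries.

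Molars of the 2 genotypes differed in few single genes. Of 20073 genes tested, 12 were higher in Het (0.0598%) and 10 lower (0.0498%) at an adjusted p under 0.05 (edgeR's quasi-likelihood test). The higher genes were Enam and Amelx, which encode the enamel matrix proteins enamelin and amelogenin, with Csn3, Cldn10, Cldn20, Otos, Scin, Enpp2, Dop1b, F13a1, Ptafr and the predicted gene Gm43318. The lower genes were Adamts16, Sfrp2, Grem1, Col8a1, Crispld2, Lrrc15, Olfml2b, Gpx3, Rbp4 and Tgfa. In all 12 higher genes each Het library lay above each WT library of the same prefix, as in 1.77% of all genes, and in all 10 lower genes each lay below, as in 2.07%. Across both prefixes together 4 of the 12 (F13a1, Cldn20, Ptafr and Gm43318) lay wholly above and 4 of the 10 (Adamts16, Crispld2, Rbp4 and Lrrc15) wholly below, as 0.717% and 0.712% of all genes did. These genes were picked by the same difference, so their separation describes them and adds no support.

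The number of calls depended on single libraries and on the block. Leaving out 1 library at a time gave 1 call without WT 3 and 232 without Het 1, and 4 to 15 calls without any one of the other 8. Over these 10 fits Scin was called in 10, Adamts16 and Enpp2 in 9, Csn3 and Cldn10 in 7, Enam in 6, Crispld2, F13a1 and Tgfa in 4, Amelx and Sfrp2 in 3, and Col8a1, Dop1b, Grem1 and Lrrc15 in 2. Cldn20, Gpx3, Olfml2b, Otos, Ptafr, Rbp4 and Gm43318 were called in 1, that without Het 1. Without the 3 libraries with raised keratinocyte markers no WT library of prefix 2 is left and the difference rests on prefix 1. Then 5 genes were called, and of the 22 genes Csn3 and Enam remained. Without the prefix block only Adamts16 was called, and DESeq2 with the same terms called 354 genes, all 22 among them. All 22 genes kept their direction in each of the 24 alternative settings tried. Their separation within each prefix largely fixed this outcome in advance, so it adds no support.

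Enam had the largest rise of the called genes. It was at 367, 208, 401, 34.5 and 41.1 CPM in WT 1 to 5 and at 2448, 2803, 1932, 146 and 73.0 CPM in Het 1 to 5. Prefix 1 libraries were high and prefix 2 libraries low in both genotypes, so the genotypes overlapped as a whole but not within a prefix. The log2 fold change was 2.35 ± 0.30 (SE; edgeR adjusted p = 0.0165), with 2.88 in prefix 1 and 1.53 in prefix 2. Enamelin is a scarce enamel protein that is needed for the crystals to elongate. Amelx, which encodes the bulk protein of young enamel, was at 1711, 1561, 1713, 609 and 661 CPM in WT 1 to 5 and at 4573, 4595, 3195, 934 and 944 CPM in Het 1 to 5. It showed the same order, with WT 4 and WT 5 lowest and Het 1 to 3 highest. Its log2 fold change was 1.01 ± 0.15 (SE; edgeR adjusted p = 0.0312), with 1.31 in prefix 1 and 0.56 in prefix 2. With 1 library left out at a time, the log2 fold change was 2.13 to 2.62 for Enam and 0.92 to 1.10 for Amelx.

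The promoters of these 2 genes are printed because both genes rose. They come from RefSeq (GRCm38.p6), 250 bases before to 50 after the start of transcription. Positions are negative before the start and positive from the start on, with no position 0. Capitals mark TATAAA, the core of a TATA box, and CAGACA, a Smad-type motif, searched on both strands.

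Enam promoter, chr5:88487725-88488024, plus strand: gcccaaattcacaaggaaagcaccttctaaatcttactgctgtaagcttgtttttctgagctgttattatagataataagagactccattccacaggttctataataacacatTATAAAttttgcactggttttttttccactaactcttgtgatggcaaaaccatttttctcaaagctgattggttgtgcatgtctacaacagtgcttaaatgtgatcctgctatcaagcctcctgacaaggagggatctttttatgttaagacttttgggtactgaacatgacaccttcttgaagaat

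Amelx promoter, chrX:169187160-169187459, minus strand: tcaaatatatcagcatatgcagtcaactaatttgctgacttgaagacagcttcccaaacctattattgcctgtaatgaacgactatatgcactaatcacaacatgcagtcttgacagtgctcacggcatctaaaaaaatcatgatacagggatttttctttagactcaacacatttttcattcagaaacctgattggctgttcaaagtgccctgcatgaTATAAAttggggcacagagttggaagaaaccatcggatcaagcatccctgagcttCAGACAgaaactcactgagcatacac

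TATAAA stood at -137 in Enam and at -31 in Amelx, and CAGACA at 25 in Amelx. Among 32851 mouse promoters of this length, 13.6% held TATAAA and 21.0% held CAGACA. Of the called genes, 9 higher and 9 lower ones had a promoter in the table. TATAAA occurred in 2 of the 9 higher (Amelx and Enam) and 1 of the 9 lower (Rbp4), and CAGACA in 3 higher (Amelx, Cldn20 and Ptafr) and 4 lower ones (Col8a1, Crispld2, Sfrp2 and Tgfa). A gene was counted if any of its promoters held the motif, while 13.6% and 21.0% are shares of single promoters, so the 2 measures are unlike. Runx-type, homeobox-type, Pitx-type and AP-1 motifs were also searched for, and none lay in the Enam or Amelx window. These matches describe letters in the windows only.

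**Figure D1:**
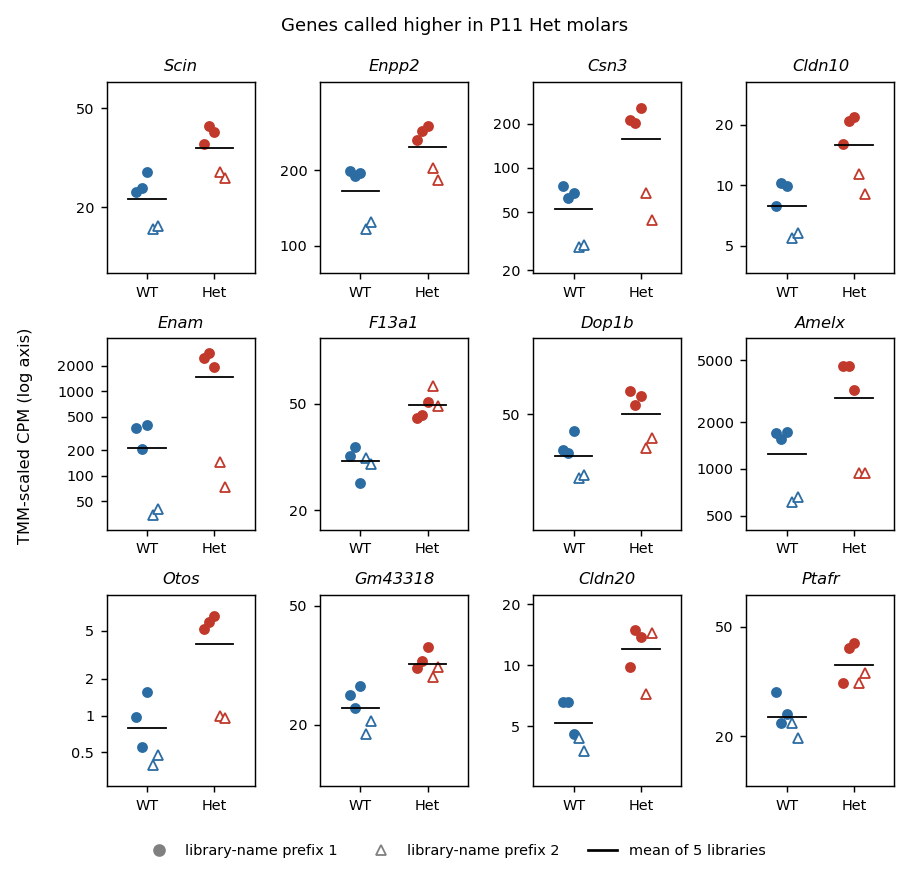
TMM-scaled CPM (log axis) of the 12 genes called higher in Het molars at P11, 1 point per library, filled circles for prefix 1, open triangles for prefix 2, and a line at the mean of 5 libraries. Enam and Amelx are low in the prefix 2 libraries of both genotypes, and within each prefix the Het points lie above the WT points in all 12 genes.

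The other genes of the secretory stage moved less. Of 24 secretory-stage genes tested, Enam and Amelx were called, 15 had positive and 9 negative fold changes, and the median log2 fold change was 0.04, against 0.00 over all genes. At an unadjusted p under 0.05, 8 were higher and 1 lower, where 7.1% and 5.02% of all genes were. Ambn, which encodes ameloblastin, was at 24701, 22715, 23643, 17523 and 17093 CPM in WT 1 to 5 and at 27194, 38663, 38328, 20582 and 17882 CPM in Het 1 to 5. Het 1 to 3 stood above every WT library, while Het 4 and Het 5 lay within the WT range (log2 fold change 0.39 ± 0.13 SE; edgeR adjusted p = 0.288). Dlx3, a homeobox factor of the enamel epithelium, gave 0.58 ± 0.17 (SE; edgeR adjusted p = 0.251), and Cnnm4, a magnesium transporter whose loss impairs enamel, 0.50 ± 0.14 (SE; adjusted p = 0.233). Scaled over all 22 libraries, mean Cnnm4 in WT was 2111 CPM at P5 and 1798 CPM at P11. Mean Enam in WT was 28149.7 and 203 CPM, so Cnnm4 does not mark the secretory stage as Enam does. Mmp20, the protease that trims the secretory matrix, averaged 122 ± 7.28 CPM in the WT and 124 ± 20.6 CPM in the Het group (SD, n = 5 each), with a log2 fold change of 0.01 ± 0.08 (SE; edgeR adjusted p = 0.971).

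No maturation-stage gene was called. Of 28 tested, 13 had positive and 15 negative fold changes, the median was -0.03, and 2 were higher and 2 lower at an unadjusted p under 0.05, beside the 7.1% and 5.02% of all genes. Klk4, the protease that clears the matrix during maturation, averaged 264 ± 58.2 CPM in the WT and 254 ± 49.6 CPM in the Het group (SD, n = 5 each), with a log2 fold change of -0.04 ± 0.09 (SE). Odam and Amtn, proteins of the layer between maturing ameloblasts and enamel, gave log2 fold changes of 0.15 ± 0.13 and -0.13 ± 0.09 (SE). The edgeR adjusted p-values of the 3 genes were 0.9, 0.674 and 0.618. In prefix 1 the mean log2 CPM of the maturation list was 5.89 to 6.01 in the WT and 5.74 to 5.97 in the Het libraries. In prefix 2 it was 5.66 and 5.74 in the WT and 5.75 and 5.77 in the Het libraries. For comparison, the mean of the secretory list in prefix 1 was 6.50 to 6.56 in the WT and 6.78 to 6.85 in the Het libraries. In prefix 2 it was 6.18 and 6.19 in the WT and 6.21 and 6.33 in the Het libraries. The secretory means include Enam and Amelx, whose large fold changes weigh on them. The median log2 fold change of the secretory list was 0.05 in prefix 1 and 0.005 in prefix 2.

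Csn3 encodes kappa-casein and lies on chromosome 5 (GRCm38 chr5:87925579-87932665) in the stretch that also holds Odam, Amtn, Ambn and Enam. It was at 75.5, 62.3, 67.0, 28.7 and 29.9 CPM in WT 1 to 5 and at 213, 202, 257, 67.1 and 44.2 CPM in Het 1 to 5. Again the prefix 2 libraries were low in both genotypes, and Het 5 lay below WT 1 to 3. The log2 fold change was 1.40 ± 0.16 (SE; edgeR adjusted p = 0.00809). Otos, which encodes otospiralin, known from the inner ear, was scarce at 0.984, 0.556, 1.58, 0.395 and 0.472 CPM in WT and 5.14, 5.84, 6.55, 0.984 and 0.964 CPM in Het 1 to 5, and Het 4 and Het 5 fell in the range of WT (log2 fold change 2.04 ± 0.31 SE; edgeR adjusted p = 0.0335).

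Of the genes called higher, which made up 0.0598% of all genes, 2 encode claudins, proteins that form the tight junctions between epithelial cells. Claudin genes were not examined as a list, so these calls describe the 2 genes and not the family. Cldn10 was at 7.92, 10.2, 9.99, 5.48 and 5.82 CPM in WT 1 to 5 and at 16.2, 21.0, 21.8, 11.3 and 9.11 CPM in Het 1 to 5, with Het 5 within the WT range (log2 fold change 0.98 ± 0.12 SE; edgeR adjusted p = 0.0128). Cldn20 was at 6.54, 6.59, 4.55, 4.34 and 3.78 CPM in WT and 9.81, 14.9, 13.7, 7.23 and 14.4 CPM in Het 1 to 5, with no overlap (log2 fold change 1.24 ± 0.20 SE; edgeR adjusted p = 0.0447). Neither claudin gene shared exon bases with another gene.

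Among genes of enzymes and the cytoskeleton, Scin, which encodes the actin-severing protein scinderin, gave the smallest p-value of all genes. It was at 23.2, 23.9, 27.8, 16.3 and 16.9 CPM in WT 1 to 5 and at 36.0, 42.4, 40.1, 27.7 and 26.2 CPM in Het 1 to 5. Het 4 and Het 5 stood near WT 3, the highest WT library, and above both WT libraries of their own prefix. The log2 fold change was 0.68 ± 0.07 (SE; edgeR adjusted p = 0.00809), and Scin alone of the named called genes stayed called whichever library was left out (adjusted p 0.00512 to 0.0437). Enpp2 encodes autotaxin, the secreted enzyme that makes lysophosphatidic acid. Levels were 199, 189, 195, 117 and 125 CPM in WT 1 to 5 and 263, 287, 299, 205 and 183 CPM in Het 1 to 5, with a slight overlap through Het 5 (log2 fold change 0.60 ± 0.07 SE; edgeR adjusted p = 0.00809). Dop1b, a member of a family involved in membrane traffic, was at 37.97, 37.0, 43.8, 30.5 and 31.1 CPM in WT and 60.1, 53.8, 57.4, 38.4 and 41.5 CPM in Het 1 to 5 (log2 fold change 0.47 ± 0.07 SE; edgeR adjusted p = 0.0291). Its prefix 2 libraries were low in both genotypes and brought Het 4 and Het 5 into the WT range. Gm43318, an uncharacterised locus, stood at 25.2, 22.8, 26.9, 18.7 and 20.6 CPM in WT and 30.9, 32.7, 36.3, 28.8 and 31.3 CPM in Het 1 to 5, without overlap (log2 fold change 0.49 ± 0.08 SE; edgeR adjusted p = 0.0375). Enpp2, F13a1, Dop1b, Cnnm4 and, among genes named further on, Tgfa, Sfrp2, Col5a1, Loxl2, P3h2, Mmp11, Aspn, Tgfb3, Tgfbr3, Thbs1, Tspan2, Hhip, Shh, Gli1, Lamp1 and Bmpr1a share exon bases with other annotated genes, and in libraries without strand such reads cannot be told apart.

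Of genes known from white blood cells, F13a1 and Ptafr rose. F13a1, the catalytic chain of clotting factor XIII, made by tissue macrophages, was at 32.0, 34.5, 25.4, 31.4 and 29.8 CPM in WT and 44.1, 45.3, 50.6, 58.4 and 48.9 CPM in Het 1 to 5. Het libraries lay wholly above WT libraries (log2 fold change 0.69 ± 0.09 SE; edgeR adjusted p = 0.0219). Ptafr, the receptor of platelet-activating factor, was at 28.9, 22.4, 24.1, 22.4 and 19.8 CPM in WT and 31.1, 41.7, 43.4, 31.2 and 34.0 CPM in Het 1 to 5, and Het 1 stood close to WT 1 (log2 fold change 0.63 ± 0.10 SE; edgeR adjusted p = 0.0447). Of 24 macrophage and myeloid markers tested, F13a1 was called, 20 had positive fold changes, and the median was 0.14. With an unadjusted p under 0.05, 4 were higher and 0 lower, beside 7.1% and 5.02% of all genes. The mean log2 CPM of this list ranged from 1.81 to 2.28 in WT and from 1.96 to 2.47 in Het libraries. Cd14, Mrc1 and Cd163, next by p-value in the list, gave 0.35, 0.34 and 0.54 on the log2 scale. None of them was called (edgeR adjusted p = 0.233, 0.29 and 0.34). The general markers Cd68, Csf1r and Ptprc, named after their values were seen, had fold changes of -0.02, -0.01 and 0.10. None of these was called either. The part of these cells in the rise of F13a1 was not tested, and in bulk tissue a change in the number of cells of a type and a change in RNA per cell cannot be told apart.

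Adamts16 had the largest fall of the called genes. It encodes a secreted metalloprotease with thrombospondin repeats (GRCm38 chr13:70727802-70841811). Its level was 5.19, 4.74, 4.6, 3.87 and 2.99 CPM in WT 1 to 5 and 1.78, 1.08, 1.3, 1.55 and 1.2 CPM in Het 1 to 5. Het libraries lay wholly below WT libraries. The log2 fold change was -1.61 ± 0.18 (SE; edgeR adjusted p = 0.00809).

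Secreted inhibitors of signalling fell in 2 cases. Sfrp2, which binds Wnt ligands and is strongly made in dental mesenchyme, was at 69.9, 63.8, 57.8, 83.2 and 87.0 CPM in WT and 42.0, 35.9, 43.6, 68.1 and 54.4 CPM in Het 1 to 5. Het 4 lay within the WT range (log2 fold change -0.58 ± 0.09 SE; edgeR adjusted p = 0.0312). Grem1, an antagonist of bone morphogenetic proteins (BMPs), was at 7.98, 12.3, 8.51, 17.6 and 18.5 CPM in WT and 5, 6.58, 4.33, 8.51 and 8.48 CPM in Het 1 to 5. Here prefix 2 libraries were the higher ones in both genotypes, and Het 4 and Het 5 lay between WT 1 and WT 3 (log2 fold change -0.95 ± 0.15 SE; edgeR adjusted p = 0.0379). No other member of the 25 BMP and 26 Wnt pathway genes tested was called, and the list medians were -0.0004 and -0.04. Of all genes 0.0498% were called lower. At an unadjusted p under 0.05, 4 BMP genes were higher and 3 lower, and 3 Wnt genes were higher and 5 lower. Of all genes 7.1% were higher and 5.02% lower at that p.

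Tgfa, a ligand of the epidermal growth factor receptor, was at 7.29, 8.92, 8.84, 17.0 and 17.2 CPM in WT and 5.26, 5.5, 4.51, 9.08 and 10.8 CPM in Het 1 to 5, again higher in prefix 2 (log2 fold change -0.74 ± 0.10 SE; edgeR adjusted p = 0.0259). Proteins that circulate or scavenge were also on the list of lower genes. Gpx3, the secreted glutathione peroxidase, was at 512, 612, 552, 752 and 889 CPM in WT and 397, 376, 365, 614 and 520.5 CPM in Het 1 to 5 (log2 fold change -0.55 ± 0.08 SE; edgeR adjusted p = 0.0312). Rbp4, the carrier of retinol, was at 13.03, 18.6, 14.8, 18.5 and 20.2 CPM in WT and 9.45, 7.37, 7.45, 12.8 and 12.1 CPM in Het 1 to 5 (log2 fold change -0.81 ± 0.12 SE; edgeR adjusted p = 0.0312). Rbp4 did not overlap between genotypes, while Gpx3 in Het 4 and Het 5 lay within the range of WT.

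Of the 4 remaining lower genes, Col8a1, a short-chain collagen, was at 29.4, 30.4, 28.5, 29.7 and 23.5 CPM in WT and 18.5, 24.1, 18.8, 14.6 and 14.3 CPM in Het 1 to 5, and overlapped only through WT 5 and Het 2 (log2 fold change -0.67 ± 0.10 SE; edgeR adjusted p = 0.0379). Crispld2, a secreted protein with a cysteine-rich domain, was at 77.2, 80.8, 78.0, 78.8 and 88.1 CPM in WT and 58.8, 55.9, 59.8, 62.6 and 66.7 CPM in Het 1 to 5 (log2 fold change -0.41 ± 0.06 SE; edgeR adjusted p = 0.0221). Lrrc15, a membrane protein of matrix-making mesenchymal cells, was at 71.7, 82.4, 82.8, 72.3 and 82.4 CPM in WT and 56.0, 57.4, 56.6, 60.8 and 63.7 CPM in Het 1 to 5 (log2 fold change -0.41 ± 0.07 SE; edgeR adjusted p = 0.0435). In these last 2 genes the groups did not overlap and the spread within each group was small. Olfml2b, an olfactomedin-like matrix protein, was at 129.97, 154, 133, 169.9 and 184 CPM in WT and 98.7, 105, 98.0, 146 and 125 CPM in Het 1 to 5, with Het 4 inside the WT range (log2 fold change -0.43 ± 0.07 SE; edgeR adjusted p = 0.0435).

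**Figure D2:**
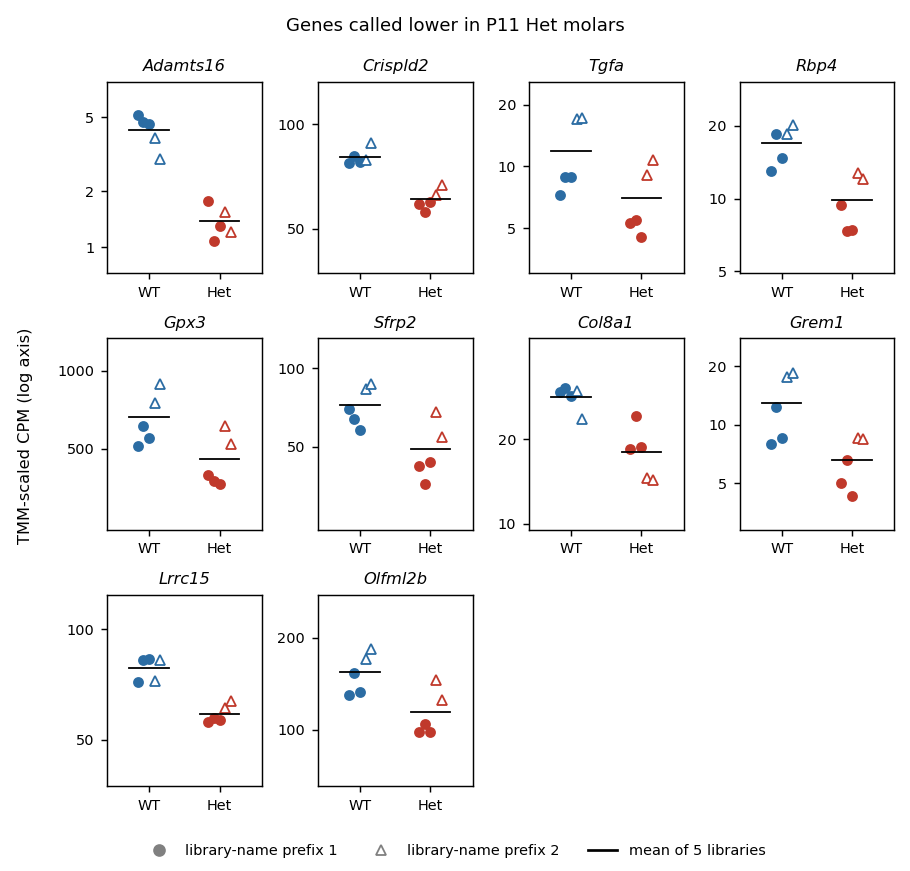
TMM-scaled CPM (log axis) of the 10 genes called lower in Het molars at P11, 1 point per library, filled circles for prefix 1, open triangles for prefix 2, and a line at the mean of 5 libraries. Adamts16, Crispld2, Rbp4 and Lrrc15 show no overlap between genotypes, while Tgfa and Grem1 are higher in prefix 2 in both genotypes.

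Beside Col8a1, which was called, the fibrillar collagens and those associated with them had lower mean values in Het molars almost throughout, and none of them passed the test. Of 17 fibrillar and associated collagens tested, 16 had negative fold changes, the median was -0.20, and 12 were lower and 0 higher at an unadjusted p under 0.05, where 5.02% and 7.1% of all genes were. In 8 of the 17 each Het library lay below each WT library of its prefix, as in 2.07% of all genes. The median was -0.27 in prefix 1 and -0.15 in prefix 2, and without the 3 libraries with raised keratinocyte markers 15 of 17 were negative with a median of -0.28. Col16a1, a collagen associated with fibrils, was at 94.3, 129, 125, 108 and 88.8 CPM in WT and 71.6, 62.2, 67.5, 70.9 and 79.8 CPM in Het 1 to 5, without overlap (log2 fold change -0.63 ± 0.11 SE; edgeR adjusted p = 0.0647). Col12a1, which links fibrils in ligaments, was at 1311, 1574, 1516, 1756 and 1796 CPM in WT and 1049, 1025, 898, 1411 and 1470.4 CPM in Het 1 to 5 (log2 fold change -0.46 ± 0.09 SE; edgeR adjusted p = 0.0859). Col5a1, which sets fibril diameter, gave -0.43 ± 0.08 (SE; edgeR adjusted p = 0.0902). Col1a1 and Col1a2, the chains of type I collagen, gave -0.50 ± 0.20 and -0.25 ± 0.08 (SE; edgeR adjusted p = 0.358 and 0.289). Col1a1 was at 20128, 19670.5, 20909, 27182 and 23623 CPM in WT and 17043, 8393, 9519.8, 24147 and 25105 CPM in Het 1 to 5, with Het 2 and Het 3 far below the WT range and Het 4 and Het 5 within it.

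Enzymes that modify collagen and proteases of the matrix also had mostly negative fold changes. Of 22 genes of collagen processing and crosslinking, 17 had negative fold changes, the median was -0.15, and 10 were lower and 1 higher at an unadjusted p under 0.05 (all genes, 5.02% and 7.1%), none called. Loxl2, a crosslinking oxidase, was at 38.8, 43.9, 39.0, 41.8 and 43.8 CPM in WT and 32.1, 34.6, 35.0, 28.9 and 31.2 CPM in Het 1 to 5, without overlap (log2 fold change -0.36 ± 0.07 SE; edgeR adjusted p = 0.0893). P3h2, a prolyl hydroxylase of collagen, gave -0.91 ± 0.17 (SE; adjusted p = 0.0902). Of 23 matrix proteases and inhibitors, 17 had negative fold changes, the median was -0.22, and 13 were lower and 2 higher at an unadjusted p under 0.05 (all genes again 5.02% and 7.1%), with Adamts16 the one called. Mmp2, which cleaves denatured collagen, was at 438, 518, 486, 517 and 604 CPM in WT and 401, 331, 329, 448 and 420.3 CPM in Het 1 to 5, and only Het 4 reached into the WT range (log2 fold change -0.41 ± 0.08 SE; edgeR adjusted p = 0.104). Mmp11 was at 22.9, 23.6, 23.9, 86.0 and 81.1 CPM in WT and 17.8, 22.9, 18.2, 28.3 and 35.2 CPM in Het 1 to 5, and WT 4 and WT 5, 2 of the libraries with raised keratinocyte markers, stood far above the rest (log2 fold change -0.72 ± 0.19 SE; edgeR adjusted p = 0.218). In a fit of all 22 libraries with the prefix block, Col16a1, Col12a1, Col5a1, Mmp2 and Mmp11 were called lower, while that fit lost 6 of the 22 calls (Csn3, Rbp4, Sfrp2, Tgfa, Grem1 and Gm43318).

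Genes of the periodontal ligament and follicle, the tissue that anchors the root, had 15 negative and 5 positive fold changes of 20 tested. Their median was -0.14, and Sfrp2 was the one called, where 0.0498% of all genes were called lower. With an unadjusted p under 0.05, 7 were lower and 2 higher, beside 5.02% and 7.1% of all genes. In 4 of the 20 each Het library lay below each WT library of its prefix, and in 0 above, as in 2.07% and 1.77% of all genes. Postn, which encodes the ligament protein periostin and is induced by TGF-beta, was at 1049.7, 1435, 1201, 1442 and 1554 CPM in WT and 721, 826, 675, 998 and 1163 CPM in Het 1 to 5. Het 5 alone lay above the lowest WT library. The log2 fold change was -0.63 ± 0.10 (SE; edgeR adjusted p = 0.0544), just outside the threshold. Aspn, a small proteoglycan of the ligament, gave -0.46 ± 0.14, and Spon1, a matrix protein, -0.20 ± 0.06 (SE; edgeR adjusted p = 0.257 and 0.253).

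Of 23 odontoblast and dentin genes 13 had negative and 10 positive fold changes, the median was -0.06, and none was called. With an unadjusted p under 0.05, 6 were lower and 2 higher, beside 5.02% and 7.1% of all genes. In 4 of the 23 each Het library lay below each WT library of its prefix, and in 0 above, as in 2.07% and 1.77% of all genes. Dspp, which encodes the main noncollagenous proteins of dentin, averaged 1168 ± 288 CPM in the WT and 1343 ± 171 CPM in the Het group (SD, n = 5 each), with a log2 fold change of 0.22 ± 0.13 (SE; edgeR adjusted p = 0.545). Dmp1, a phosphoprotein of mineralising matrix, was at 212, 224, 188, 441 and 354 CPM in WT and 136, 155, 156, 336 and 272 CPM in Het 1 to 5, higher in prefix 2 in both genotypes (log2 fold change -0.44 ± 0.09 SE; edgeR adjusted p = 0.104). Ibsp, bone sialoprotein, gave -0.49 ± 0.12 (SE; adjusted p = 0.213). Osteoclast markers, from cells that resorb bone around the tooth, had 12 negative fold changes of 15, with none called. Their median was -0.21, with -0.33 in prefix 1 and -0.03 in prefix 2. Of the 15, 3 were lower and 1 higher at an unadjusted p under 0.05 (all genes, 5.02% and 7.1%). The mean log2 CPM of that list was 4.14 to 4.54 in WT and 3.87 to 4.35 in Het libraries, and its part in the values of bone and matrix genes was not tested.

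**Figure D3:**
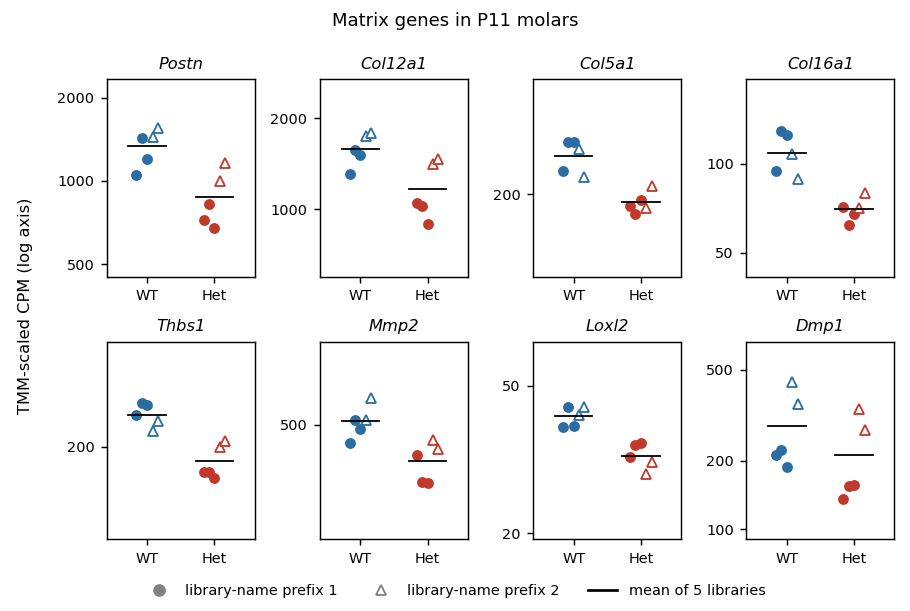
TMM-scaled CPM (log axis) of 8 matrix genes that did not pass the test in P11 molars, 1 point per library, filled circles for prefix 1, open triangles for prefix 2, and a line at the mean of 5 libraries. Col16a1, Col5a1, Thbs1 and Loxl2 do not overlap between genotypes, and Dmp1 overlaps through its higher prefix 2 libraries.

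Components of the TGF-beta pathway did not move one way. Of 30 ligands, receptors and regulators tested, 16 had positive and 14 negative fold changes, the median was 0.00, and none was called. Among the ligands, Tgfb1, Tgfb2 and Tgfb3 gave -0.17, 0.06 and 0.17 on the log2 scale, and Tgfb3 was at 121, 127, 125, 128 and 130.4 CPM in WT and 136, 132, 149, 146 and 146 CPM in Het 1 to 5, without overlap (edgeR adjusted p = 0.284). Among the receptors, Tgfbr1 gave -0.14 and Tgfbr3, a coreceptor that presents ligand, 0.68 ± 0.15 (SE; edgeR adjusted p = 0.147), at 354, 255, 325, 283 and 263 CPM in WT and 345, 608, 601, 429 and 395 CPM in Het 1 to 5. Het 1 lay within the WT range, and the other 4 Het libraries above it. Smad3 gave 0.25 ± 0.09 (SE; edgeR adjusted p = 0.336). Thbs1, a matrix protein that activates latent TGF-beta and is also a target of the pathway, was at 247, 267, 265, 222 and 238 CPM in WT and 169.9, 169.7, 163, 200.3 and 207 CPM in Het 1 to 5, without overlap (log2 fold change -0.45 ± 0.09 SE; edgeR adjusted p = 0.0902).

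Of 32 target genes of TGF-beta, 20 had negative and 12 positive fold changes, and the median was -0.06. None was called by edgeR in the 10 P11 libraries. At an unadjusted p under 0.05, 6 were lower and 1 higher, beside 5.02% and 7.1% of all genes. The lower ones included Postn and Thbs1, already given, and Tspan2, a tetraspanin (-0.58 ± 0.13 SE; edgeR adjusted p = 0.151). The higher one was Angptl4, a secreted inhibitor of lipoprotein lipase, at 26.2, 26.5, 28.1, 28.3 and 26.4 CPM in WT and 34.4, 37.3, 37.3, 38.7 and 29.95 CPM in Het 1 to 5, without overlap (log2 fold change 0.39 ± 0.07 SE; edgeR adjusted p = 0.0899). Smad7 and Pmepa1, inhibitors that the pathway induces and widely used readouts of it, were not called and gave -0.14 and -0.10 on the log2 scale, with adjusted p-values of 0.807 and 0.821 (edgeR). In the fit of all 22 libraries with the prefix block, Postn, Thbs1 and Tspan2 were called lower and 0 targets higher. DESeq2 with the prefix block called 4 targets lower and 1 higher, and edgeR without that block called 0. Without the 3 libraries with raised keratinocyte markers 15 of the 32 were negative and the median was 0.02. The sign of the median thus changed in that setting, where the difference rests on prefix 1. With 1 library left out at a time the median was -0.083 to -0.003, and it was -0.01 in prefix 1 and -0.08 in prefix 2.

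**Figure D4:**
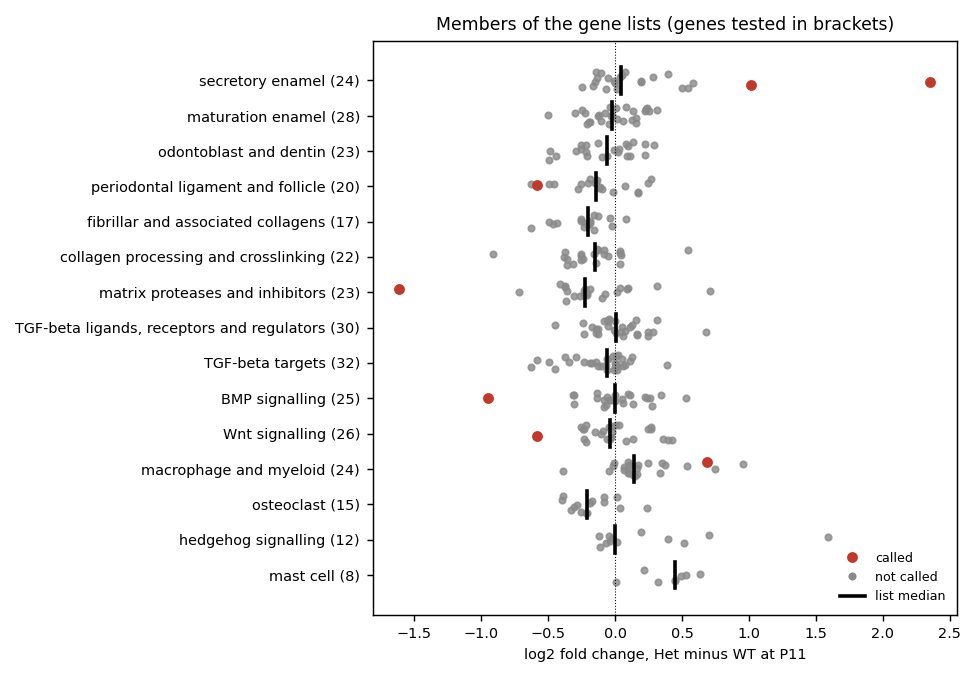
Log2 fold change (Het over WT at P11) of each tested gene in 15 lists, 1 point per gene, red where called, with a bar at the list median. The collagens sit left of 0 in 16 of 17 genes without a call, and Enam and Amelx stand far right of the other secretory genes.

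The genotype difference was set between the prefixes by an interaction term. No gene passed it in edgeR (0%, with 1617 genes at an unadjusted p under 0.05), while DESeq2 called 112. For Enam the effect in prefix 2 minus that in prefix 1 was -1.34 on the log2 scale, for Amelx -0.75 and for Csn3 -0.79, with edgeR adjusted p-values of 0.463, 0.397 and 0.399. Within prefix 1 alone 3 genes were called, all higher, and within prefix 2 alone 9 higher and 86 lower. Of those 86, out of 20073 genes tested, 15 were oral keratinocyte markers, out of 23 tested, Krt4 and Krt13 among them. The mean log2 CPM of that list was 5.71 and 4.41 in WT 4 and WT 5 against 0.88 and 1.42 in Het 4 and Het 5.

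The genotype difference at P11 was also set against that at P5, when the secretory stage is at its height. In a fit of all 22 libraries the difference changed with age in 29 of 21510 genes (0.135%; edgeR adjusted p under 0.05), 23 with a positive and 6 with a negative change. Of the 22 genes called at P11, 7 were among them, and since the P11 difference that picked them is part of this term, their number is a description. Csn3 was lower in Het at P5 (log2 fold change -2.95 ± 0.37 SE; edgeR adjusted p = 0.000436) and higher at P11, a change of 4.35 ± 0.48 (SE; adjusted p = 0.000156). Enam gave -0.08 ± 0.23 at P5, a change of 2.43 ± 0.33 (SE; edgeR adjusted p = 0.00246). Cldn20, Cldn10, F13a1, Enpp2 and Dop1b changed by 1.46, 1.03, 0.82, 0.60 and 0.60 (edgeR adjusted p = 0.0066, 0.00945, 0.00177, 0.0304 and 0.00362). For Amelx the change of 0.92 ± 0.21 (SE) did not pass (edgeR adjusted p = 0.12). The P5 effect rests on 4 of the 6 P5 Het libraries, because the other 2 have a prefix to themselves, and 1 of those 2 carries labels that disagree on its age.

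Gpx3 and Col8a1 were called lower at P5 as well, with log2 fold changes of -0.38 ± 0.07 and -0.52 ± 0.11 (SE; edgeR adjusted p = 0.0155 and 0.0435). None of the 10 lower genes had a called change with age, which does not show that their differences were equal. Levels at both ages, on the scale of all 22 libraries, are given side by side. Mean Enam was 28149.7 CPM in P5 WT, 26600.4 CPM in P5 Het, 203 CPM in P11 WT and 1431 CPM in P11 Het. Mean Amelx was 38062 CPM in WT at P5, against 1209.7 CPM in WT and 2752 CPM in Het at P11. Mean Gpx3 was 60.4 CPM in P5 WT, 642 CPM in P11 WT and 438 CPM in P11 Het. Mean Rbp4 was 0.884 CPM in P5 WT, 16.5 CPM in P11 WT and 9.48 CPM in P11 Het.

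**Figure D5:**
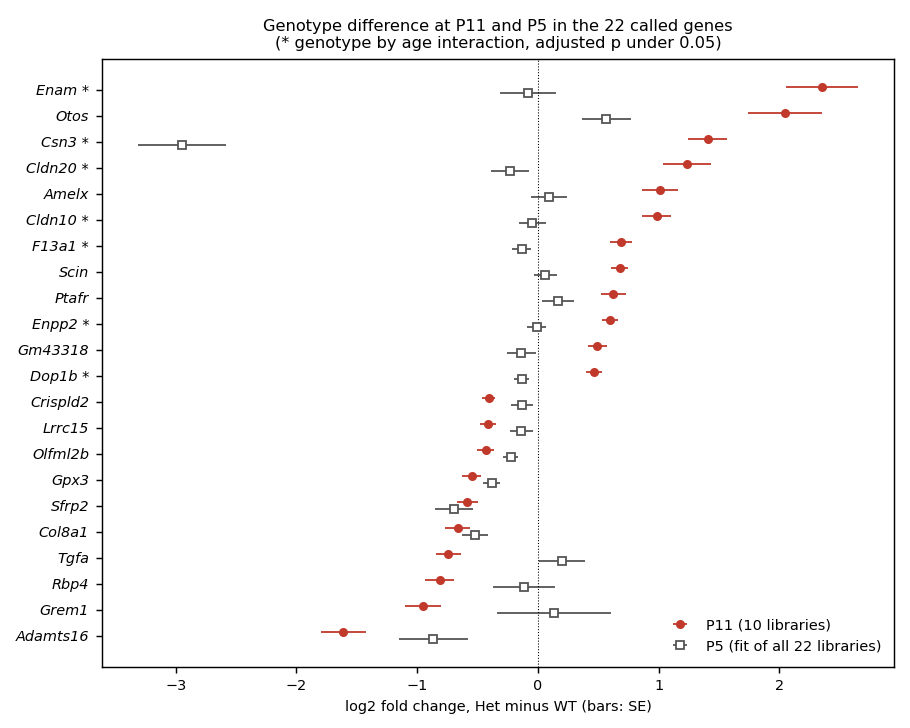
Log2 fold change (Het over WT) of the 22 called genes at P11 (red circles, 10 libraries) and at P5 (open squares, fit of all 22 libraries), with bars of 1 SE and an asterisk where the change with age passed an adjusted p under 0.05. Csn3 lies left of 0 at P5 and right of it at P11, and Enam is near 0 at P5.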

How the data were processed

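The submitters' processing notes name STAR 2.7.3a, the packages DESeq2, edgeR and limma, and build GRCm38. How reads were assigned to genes is not given in the sources used here. In the deposited raw table the values are counts for 55439 features, and 18 rows that name no mouse gene (0.000154% to 0.000379% of a P11 library) were left out. The deposited normalised table holds signal values, which the file's values show to be the authors' counts over TMM-scaled library sizes in CPM, and it served for symbols and a scale check. Nextera XT libraries hold no strand and no molecular identifiers, per the labels' protocols.

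Genes were kept by filterByExpr (minimum count 10, minimum total 15), leaving 20073, of which 20047 matched GENCODE M21. The test was edgeR 4.0.16 (quasi-likelihood, TMM, two-sided, R 4.3.3) on the 10 P11 libraries with prefix and genotype as terms and 7 residual degrees of freedom. Calls were at a Benjamini-Hochberg adjusted p under 0.05. The SE is the log2 fold change over the square root of F. Age and prefix interactions used the same test. The scripts were tested on simulated data. The gene lists and named genes were chosen with earlier results of these data known. Named genes were Tgfbr2, the called genes, the 4 members of a described list with the smallest p, and standard enamel and dentin genes. Members given beside those (Tgfb1, Tgfb2, Tgfbr1, Cd68, Csf1r, Ptprc, Smad7, Pmepa1) and Gm43318 were named after their values were seen. The hedgehog and mast cell lists were picked for description, and so Hhip, Gli1, Shh, Tpsab1 and Hdc were named, after their values in these libraries were seen. Some list members are counted but not reported by name here. No 2 libraries of a group were one library deposited again (chi-square per degree of freedom 8.59 to 100). DESeq2 1.42.0, limma-voom (limma 3.58.1), other filters, scalings, blocks and left-out libraries were alternatives. Totals of 35879149 to 45343744 counts make counting error small for all but the scarcest genes.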

Additional observations from a re-analysis of the deposited data

Results flagged for a closer look

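In groups of 5 libraries, 7 values of 168 gene-by-group sets lay apart from the other 4 by more than Dixon's limit of 0.71 of the range, a flag that chance alone raises in about 1 group in 20. Krt4 was at 314 CPM in WT 4 (others 0.558 to 83.7) and at 280.4 CPM in Het 2 (others 1.45 to 17.8). Krt13, another keratin of the oral mucosa, reached 237 CPM in WT 4 and 228 CPM in Het 2. The mast cell tryptase Tpsab1 was at 10.4 CPM in WT 4 (others 7.20 to 7.62). Col8a1 was at 23.5 CPM in WT 5 (others 28.5 to 30.4), and Smad1, a transducer of BMP signals, at 76.4 CPM in Het 3 (others 53.7 to 60.1).

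The genotype difference changed between P5 and P11 in 8 of the named genes (edgeR's interaction term, effect at P11 minus effect at P5 on the log2 scale). The change was 4.35 for Csn3 (adjusted p = 0.000156), 2.43 for Enam (0.00246), 1.46 for Cldn20 (0.0066), 1.03 for Cldn10 (0.00945), 0.82 for F13a1 (0.00177), 0.80 for Odam (0.0205), 0.60 for Enpp2 (0.0304) and 0.60 for Dop1b (0.00362). Odam was lower in Het at P5, by a log2 fold change of -0.65 (edgeR adjusted p = 0.00407), and not called at P11.

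The rows of the count table that name no mouse gene, which no comparison used, held 70 to 136 counts per P11 library, above the 3 counts that a count of 0 allows.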

How the results depend on the processing

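The reported fit called 12 higher and 10 lower genes, and all 22 kept their direction in the 24 alternatives. That outcome was largely fixed by their separation within each prefix and adds no support. Higher and lower calls numbered 0 and 1 without the prefix block, 47 and 38 in all 22 libraries with that block, 5 and 1 without it, 187 and 167 with DESeq2, 250 and 128 with no filter, 5 and 0 without the 3 libraries with raised oral markers, 26 and 36 with the keratinocyte score as a covariate, 3 and 0 in prefix 1, and 9 and 86 in prefix 2. The cause was not tested. Leaving out each replicate gave 1 to 169 higher and 0 to 63 lower calls (1 and 0 without WT 3, 169 and 63 without Het 1). The replicate numbers of the titles do not pair libraries (correlations of deviations -0.223 to 0.166), and with them as a replicate block 0 higher and 0 lower genes were called (edgeR; 1918 at an unadjusted p under 0.05). Interaction with age, 23 positive and 6 negative, became 3 and 0 without the prefix block, 76 and 34 with DESeq2, and 9 to 24 and 2 to 10 with 1 library left out. The prefix interaction, 0 in edgeR, was 112 with DESeq2.

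Reversed directions concerned genes that were not called. Krt4 and Krt13 gave -0.37 and -0.25 without the prefix block, -0.38 and -0.26 in all libraries without it, -1.85 and -1.57 with limma-voom, -6.51 and -6.28 in prefix 2, and -0.22 to 5.19 and -0.40 to 4.65 without single libraries. Mmp20 gave -0.19 in prefix 2 and -0.054 to 0.068 without single libraries, and Klk4 0.065 in prefix 2 and -0.11 to 0.025 without single libraries. Prefix 2 alone gave 0.065 for Lamp1, 0.017 for Bmpr1a and 0.071 for Amtn, and Dspp gave -0.023 without the 3 libraries. Of the other values of single genes, 1797 kept direction and side of the threshold, 273 lost and 88 gained a call.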

Other observations

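Hedgehog signalling, by which the enamel epithelium and the mesenchyme exchange signals, had 6 positive and 6 negative fold changes of 12 genes tested, a median of -0.003 and no call, and 4 genes were higher and 0 lower at an unadjusted p under 0.05, where 7.1% and 5.02% of all genes were. The list was picked after its values were seen. They included the ligand Shh, the transcription factor Gli1 and the pathway-induced inhibitor Hhip. Hhip was at 11.2, 11.5, 11.4, 4 and 3.17 CPM in WT and 14.2, 17.6, 13.7, 10.2 and 5.9 CPM in Het 1 to 5, lower in prefix 2, with each Het library above the WT libraries of its prefix (log2 fold change 0.70 ± 0.18 SE; edgeR adjusted p = 0.213). Gli1 gave 0.39 ± 0.13 (SE; edgeR adjusted p = 0.289), and Shh, near the detection limit at 0.16, 0.371, 0.508, 0.0494 and 0.184 CPM in WT and 0.841, 2.1, 0.548, 0.197 and 0.337 CPM in Het, 1.59 ± 0.48 (SE; adjusted p = 0.255). In the fit of all 22 libraries with the prefix block Hhip was called.

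All 8 mast cell markers tested had positive fold changes, with a median of 0.45 and no call, and 3 were higher at an unadjusted p under 0.05 (7.1% of all genes), in a list likewise picked after its values were seen. Tpsab1 was at 7.47, 7.2, 7.62, 10.4 and 7.5 CPM in WT and 8.27, 11.0, 11.1, 16.7 and 11.4 CPM in Het 1 to 5 (log2 fold change 0.53 ± 0.14 SE; edgeR adjusted p = 0.228), and Hdc, which makes histamine, gave 0.63 ± 0.29 (SE; edgeR adjusted p = 0.41). The mean log2 CPM of the list was 0.76 to 0.99 in WT and 1.03 to 1.92 in Het libraries. Without the 3 libraries with raised oral markers the median was 0.28 and all 8 were positive, and 7 of 8 were positive in prefix 2 alone and without WT 2, WT 4, Het 3 or Het 4.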
